A study of Homo sapiens with 36 samples.

Results

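The response of 2 pancreatic ductal adenocarcinoma lines, PANC-1 and MIA PaCa-2, to the compound 3A4 was compared gene by gene. The compound is known here by its code name alone, and the labels call it an inverse agonist of the liver X receptors (LXR). The 12 libraries used, of the 36 in the series, were taken by their labels: PANC-1 given 3A4, PANC-1 given the vehicle DMSO, MIA PaCa-2 given 3A4 and MIA PaCa-2 given DMSO, with 3 libraries in each of the 4 groups. The compound was given at 10 µM for 48 h, and both lines grew in DMEM with 10% fetal bovine serum, per the labels' protocols. Both are established human lines, and each stands for 1 tumour, so a difference between them belongs to these lines and cannot be tied to any 1 of the properties in which they differ. The other 24 libraries hold the line BxPC-3 and the ligands GW3965 and 1E5, and are used only where named.

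LXR, made in an alpha form (NR1H3) and a beta form (NR1H2), are nuclear receptors for oxidised cholesterol that bind DNA as partners of the retinoid X receptors. When a sterol or synthetic agonist is bound they switch on genes of cholesterol export, such as ABCA1 and ABCG1, and of fatty acid synthesis, such as SREBF1, FASN and SCD. Without an agonist they can hold these genes down with corepressors, and an inverse agonist favours that state. The question of the comparison is which parts of the transcript response to such a compound are common to both lines and which belong to 1 of them.

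Totals were 24306467, 24843651 and 14960970 counts in PANC-1 with 3A4 and 20560783, 24426762 and 25672534 with DMSO. In MIA PaCa-2 they were 8889927, 24588097 and 18857031 with 3A4, against 6512881, 10996848 and 3609582 with DMSO. The depth of MIA PaCa-2 was therefore uneven and lowest in its DMSO libraries. The shallowest of these, replicate 3, stood apart from its group, at -51.8 on the second principal component of the 12 libraries, against -10.7 and -11.1 for replicates 1 and 2, and at 26.4 on the third, against -27.1 and -23.5. Without it MIA PaCa-2 had 1934 calls instead of the 3297 given below, and 305 differences were called instead of 550. Mitochondrially encoded genes took 7.54% to 7.92% of the counts in PANC-1 with 3A4 and 6% to 7.23% with DMSO, against 5.53% to 6.62% and 7.52% to 7.58% in MIA PaCa-2. Known markers separated the lines as labelled: the epithelial gene EPCAM and the neural cadherin CDH2 were seen in every PANC-1 library and listed at 0 in every MIA PaCa-2 library, keratins KRT8, KRT18 and KRT19 and vimentin were seen in both, and the tumour suppressor CDKN2A, which both lines are known to have lost, was listed at 0 in all 12. Over 18 markers of cells that a culture of these lines should not hold, the summed level was 59.2 to 84.0 CPM (counts scaled to a common library total) in PANC-1 with 3A4, 70.0 to 187 with DMSO, 131 to 212 in MIA PaCa-2 with 3A4 and 292 to 311 with DMSO. It was made up mostly of COL1A1 and the lysosomal CD68 in PANC-1 and of COL1A2 in MIA PaCa-2, while the markers PTPRC and CD3E of leukocytes, PECAM1 of endothelium, DCN and LUM of fibroblasts and INS of islets were at or near 0 in all 12 libraries. Others on the list were not: the endothelial cadherin CDH5 was at 7.08 to 11.8 CPM in MIA PaCa-2 with 3A4 and 21.2 to 25.8 with DMSO, and at or near 0 in PANC-1. The monocyte marker CD14 was at 2.95 to 4.11 CPM in PANC-1 with 3A4, 0.762 to 1.13 with DMSO, 2.37 to 4.76 in MIA PaCa-2 with 3A4 and 14.1 to 19.3 with DMSO. Whether cells of these types were present was not tested.

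Of 18475 genes tested, 1122 (6.07%) changed with 3A4 in PANC-1, 554 higher (3.00%) and 568 lower (3.07%). In MIA PaCa-2 3297 (17.8%) changed, 1960 higher (10.6%) and 1337 lower (7.24%). A gene is said to have changed, risen or fallen where the adjusted p of edgeR's quasi-likelihood test, fitted to the 12 libraries together, was under 0.05 after Benjamini and Hochberg's adjustment over all genes tested. The same threshold on the difference of the log2 fold changes, PANC-1 minus MIA PaCa-2, called 550 genes (2.98%). Of these 194 (1.05%) had the higher value in PANC-1 and 356 (1.93%) the lower. The call of a response in 1 line and not in the other is not a difference by itself, so the genes were sorted with the test of the difference as well. This was done over the 13964 genes that passed the count filter within the 6 libraries of each line. A gene low in 1 treatment could pass it through the libraries of the other treatment alone, and its direction was then set by the filter. Among the 13964 genes PANC-1 had 471 higher (3.37%) and 520 lower (3.72%), and MIA PaCa-2 had 1720 higher (12.3%) and 1277 lower (9.14%). The difference was called higher in PANC-1 for 179 (1.28%) and lower for 313 (2.24%). The 3A4 and DMSO libraries did not overlap for 39.9% of these genes in PANC-1 and 38.4% in MIA PaCa-2, so a lack of overlap alone is common.

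Of these genes, 434 (3.11%) changed in the same direction in both lines, 233 higher and 201 lower. They were 43.8% of the genes called in PANC-1 and 14.5% of those called in MIA PaCa-2. The median size of their log2 fold change was 0.87 in PANC-1 and 0.92 in MIA PaCa-2, and 12 of them had a called difference, 9 with the larger change in MIA PaCa-2. Another 38 genes (0.272%) changed in opposite directions, 20 of them higher in PANC-1 and lower in MIA PaCa-2. A further 89 genes changed in PANC-1, were not called in MIA PaCa-2 and had a called difference, 42 higher and 47 lower. The like class for MIA PaCa-2 held 331 genes, 221 higher and 110 lower. Of the 221, 13 were listed at 0 in every MIA PaCa-2 DMSO library, and their direction was set by the count filter, as described below. For 71 of the 89 and 267 of the 331, the 95% interval of the response in the other line lay within a log2 fold change of -1 to 1, so that a response of 2-fold or more in the other line was outside it.

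For most genes called in only 1 line the difference was not called: 430 in PANC-1 and 2194 in MIA PaCa-2. These cannot be described as particular to a line, and 80.9% and 77.9% of them had the same sign in the other line, against 61.2% of all 13964 genes. Across these genes the log2 fold changes of the lines had a Pearson r of 0.35 and a Spearman rho of 0.33. This is a description across genes, which are not independent replicates, but the lines share no library.

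**Figure D1:**
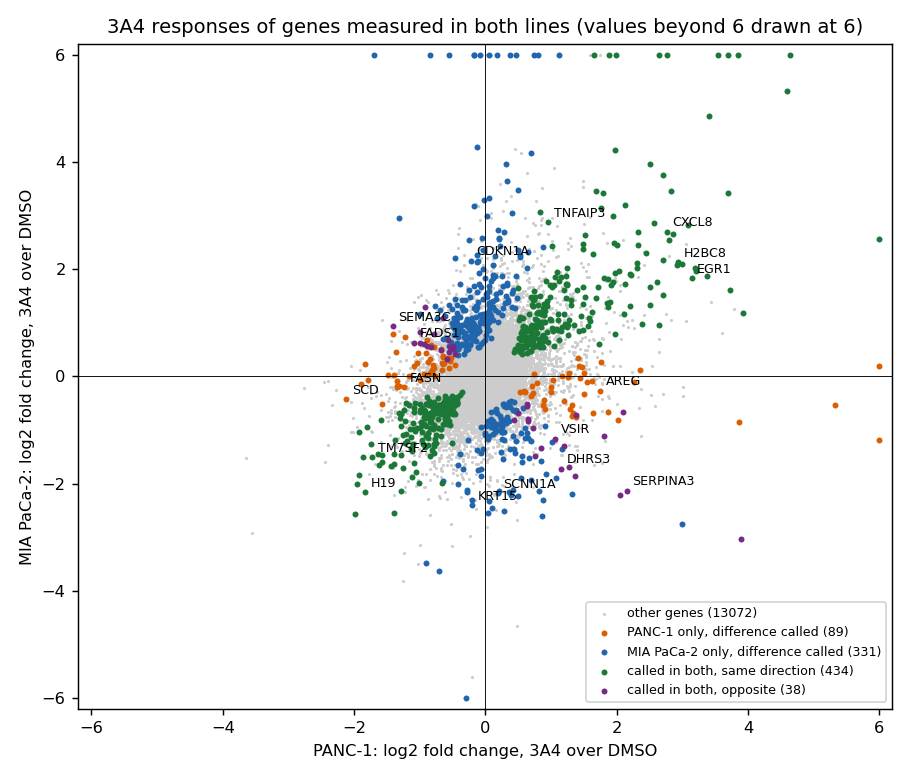
Log2 fold change of 3A4 over DMSO in PANC-1 (x axis) and MIA PaCa-2 (y axis) for the 13964 genes measured in both lines, 1 point per gene, coloured by class. Genes called in both lines lie mostly along the rising diagonal (434 in the same direction, 38 in opposite ones), and genes listed at 0 in a whole group have fitted values that are no measured fold and are drawn at the edge.

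The number of calls moved with the libraries and with the fit, and the order of the lines is not a result. Fitted to its own 6 libraries, PANC-1 had 2403 calls and MIA PaCa-2 1506, the reverse of the order above. Leaving out 1 library at a time gave 161 called differences without PANC-1 3A4 replicate 1 and 1196 without MIA PaCa-2 3A4 replicate 1, the shallowest library of its group. Of the calls named above, 251 of 991 in PANC-1, 1334 of 2997 in MIA PaCa-2 and 121 of 492 differences held in all 12 such fits, which means that the call was made in each of them. Both responses held for 104 of the 434 shared genes. Both responses and the difference held for 6 of the 38 opposite genes, whose difference alone held for 34. The response and the difference held for 13 of the 89 PANC-1 genes and 66 of the 331 MIA PaCa-2 genes. For the genes described below, a call that did not hold in all 12 fits has the number of fits that kept it and its highest adjusted p beside it. Without further scaling of the library totals, PANC-1 had 699 higher and 448 lower calls, against 554 and 568 with TMM scaling, and the shared class had 304 higher and 158 lower.

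Genes that rose in both lines were led by growth factor ligands, chemokines, immediate early transcription factors and histones. The plot of 10 genes by library shows CXCL8, H2BC8 and LSS as examples of the shared class. CXCL8 (ENSG00000169429; chromosome 4, 73740506 to 73743716), the neutrophil chemokine interleukin 8, stood at 4.74, 4.34 and 3.17 CPM in PANC-1 with 3A4, against 0.589, 0.521 and 0.689 with DMSO. In MIA PaCa-2 it was at 232, 397 and 240 CPM with 3A4, against 55.3, 39 and 39.3 with DMSO. No library with 3A4 overlapped one with DMSO in either line, and the folds were close although the level was far higher in MIA PaCa-2: log2 2.76 ± 0.326 SE, adjusted p = 0.000753 in PANC-1 and log2 2.70 ± 0.219 SE, adjusted p = 8.65e-05 in MIA PaCa-2, with a difference of 0.06 ± 0.393 (adjusted p = 0.977).

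EGR1 (ENSG00000120738; chromosome 5, 138465490 to 138469315), a zinc finger factor induced within minutes of growth signals, was at 19.7, 17 and 18.5 CPM in PANC-1 with 3A4, against 2.7, 2.53 and 1.07 with DMSO. EGR1 in MIA PaCa-2 was at 138, 147 and 179 CPM with 3A4, against 59.8, 41 and 28.4 with DMSO. It rose in both lines without overlap of the groups (log2 3.14 ± 0.31 SE, adjusted p = 0.000681 in PANC-1; log2 1.83 ± 0.275 SE, adjusted p = 0.00173 in MIA PaCa-2). The EGF-receptor ligand HBEGF (ENSG00000113070; chromosome 5, 140332843 to 140346631) was at 16.4, 14.6 and 13.4 CPM in PANC-1 with 3A4, against 4.66, 1.85 and 4.97 with DMSO. HBEGF in MIA PaCa-2 was at 30.1, 39.7 and 30.1 CPM with 3A4, against 5.77, 4.6 and 1.44 with DMSO (log2 1.95 ± 0.361 SE, adjusted p = 0.0106 in PANC-1; log2 2.99 ± 0.397 SE, adjusted p = 0.000873 in MIA PaCa-2). EREG, another ligand of that receptor, rose by log2 1.60 ± 0.227 in PANC-1 and 1.03 ± 0.21 in MIA PaCa-2. DUSP5, a phosphatase that acts on nuclear ERK, rose by log2 1.96 ± 0.263 in PANC-1 and 2.49 ± 0.301 in MIA PaCa-2. FOS, a subunit of the AP-1 factor, rose by log2 2.71 ± 0.453 in PANC-1 and 1.52 ± 0.407 in MIA PaCa-2 (kept in 8 of 12 fits, adjusted p up to 0.0825), and FOSL1, another, by 1.20 ± 0.294 in PANC-1 (kept in 7 of 12 fits, adjusted p up to 0.142) and 1.61 ± 0.306 in MIA PaCa-2. The epidermal gene ALOXE3, a lipoxygenase, was at 3.62, 4.38 and 3.67 CPM in PANC-1 with 3A4, against 0.246, 0 and 0.23 with DMSO. ALOXE3 in MIA PaCa-2 was at 15.4, 16.9 and 12.8 CPM with 3A4, against 0, 0.767 and 0. Its DMSO levels were near 0 in both lines, so the size of its fold is poorly set. It passed the count filter in each line only through the 3A4 libraries, so its direction was set by that choice.

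Counted by lists, 5 of 12 AP-1 and immediate early genes rose and 1 fell in PANC-1, and 8 rose and 1 fell in MIA PaCa-2. The list's median log2 fold change was 0.80 in PANC-1 and 1.40 in MIA PaCa-2, against -0.01 and 0.05 over all 13964 genes. For these and the lists that follow, the shares over all 13964 genes were 3.37% higher and 3.72% lower in PANC-1. In MIA PaCa-2 they were 12.3% higher and 9.14% lower. Of 10 chemokines and interleukins, 5 rose in both lines (CXCL2, CXCL3, CXCL5, CXCL8 and LIF), with no call of a fall by edgeR; the rise in PANC-1 of CXCL3 was kept in 5 of 12 fits, adjusted p up to 0.152, and that of LIF kept in 7 of 12 fits, adjusted p up to 0.131. The list's difference was called for 0 genes by edgeR and for 1 by DESeq2, with 1 at an unadjusted p under 0.05. CXCL5 was at 1.31, 1.78 and 1.37 CPM in PANC-1 with 3A4, against 0.344, 0.401 and 0.268 with DMSO. CXCL5 in MIA PaCa-2 was at 88.1, 171 and 99.9 CPM with 3A4, against 41.4, 32.5 and 34.4 with DMSO. In PANC-1, CXCL5 and CXCL2 were low with DMSO and passed the count filter only through the 3A4 libraries. Their direction in that line was set by that choice. Of 15 genes of ERK feedback and output, 5 rose in PANC-1 and 7 in MIA PaCa-2, and 4 rose in both.

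The promoters of the shared genes were searched for TGACTCA, the letters of the AP-1 binding site. This is a description of letters in the RefSeq promoter table (build GRCh38.p14), which covers 250 bases before to 50 after a gene's start and was searched on both strands. It held 177 of the 233 shared genes that rose, and 10.7% of these had TGACTCA, against 0.637% of the 157 shared genes that fell, 2.92% of 10008 genes measured in both lines and 4.92% of all 27305 promoters. A match is not a binding site, and the factor was not measured. Of the other letters searched, the same promoters of shared genes that rose held TGAC, any 3 letters and GC (NRF2) in 19.8%, against 15.2% of genes measured in both lines, and GCGTG (AHR) in 47.5%, against 51.9%. CCAAT (NF-Y) stood in 33.9%, against 36.8%, TTTGAA (CHR) in 11.9%, against 9.27%, TTT, any 2 letters and CGC (E2F) in 10.7%, against 10.8%, and TGAC followed by GTCA (CRE) in 5.65%, against 3.46%. The sterol regulatory element, as TCAC, any letter and CCAC, stood in 0 of 13 promoters of fatty acid synthesis and 1 of 16 of cholesterol synthesis and uptake, against 1.03% of genes measured in both lines. The composite of ATF4 and CEBP, as TGATG, any letter and AA, stood in 35% of the 20 promoters of amino acid genes and 12.5% of the 16 of the integrated stress response, against 1.52%. By class, it stood in 2.87% for genes that rose in MIA PaCa-2 with a called difference. For shared genes it stood in 2.82% of those that rose and 3.82% of those that fell. The promoters of CEBPB, CEBPG, CTH, PSAT1 and DDIT4, described below, did not hold it. The stretches around the letters are shown for 3 genes that rose in both lines, from the gene's strand, 5′ to 3′, with TGACTCA in capitals. OSGIN1 is an oxidative stress gene and S100A2 a calcium-binding protein of basal epithelium.
CXCL8 (chr4:73740407-73740463, plus strand): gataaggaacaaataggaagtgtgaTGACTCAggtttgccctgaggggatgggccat
OSGIN1 (chr16:83953118-83953174, plus strand): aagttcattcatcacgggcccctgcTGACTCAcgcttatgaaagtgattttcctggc
S100A2 (chr1:153565865-153565921, minus strand): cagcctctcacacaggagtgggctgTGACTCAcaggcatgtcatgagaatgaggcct
OSGIN1 was at 13.2, 13.7 and 10.4 CPM in PANC-1 with 3A4, against 5.35, 4.49 and 4.28 with DMSO. OSGIN1 in MIA PaCa-2 was at 23, 18.8 and 22.1 CPM with 3A4, against 5.61, 5.75 and 10 with DMSO. S100A2 was at 8.32, 7.36 and 8.4 CPM in PANC-1 with 3A4, against 2.95, 1.85 and 1.91 with DMSO. S100A2 in MIA PaCa-2 was at 48.9, 24.6 and 28.9 CPM with 3A4, against 14.3, 14 and 10.9 with DMSO. For both genes the libraries with 3A4 lay above those with DMSO in each line.

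Replication-dependent histone genes, whose messages lack a poly(A) tail and are made mainly during DNA synthesis, rose in both lines. Of 13 measured, 7 rose in PANC-1 and 9 in MIA PaCa-2, 6 of them in both, and none fell by edgeR (0 in PANC-1 and 0 in MIA PaCa-2 at an unadjusted p under 0.05, 0 and 0 by DESeq2). Their median log2 fold change was 1.52 in PANC-1 and 1.07 in MIA PaCa-2. H2BC8 (ENSG00000273802; chromosome 6, 26215159 to 26216692) was at 15, 11.1 and 15.1 CPM in PANC-1 with 3A4, against 1.87, 1.6 and 1.87 with DMSO. H2BC8 in MIA PaCa-2 was at 3.13, 3.41 and 3.34 CPM with 3A4, against 0.962, 0.671 and 0.574 with DMSO. The groups did not overlap in either line (log2 2.94 ± 0.224 SE, adjusted p = 0.000404 in PANC-1, and log2 2.13 ± 0.305 SE, adjusted p = 0.000899 in MIA PaCa-2). In MIA PaCa-2, however, H2BC8 passed the count filter only through the 3A4 libraries, so its direction there was set by that choice. The linker histone gene H1-2 was at 103, 70 and 80.2 CPM in PANC-1 with 3A4, against 14.4, 15.8 and 14.2 with DMSO. H1-2 in MIA PaCa-2 was at 84.7, 104 and 66.5 CPM with 3A4, against 34.8, 19.9 and 26.4. Of the 2 members with a called difference, H2AC20 had risen in PANC-1 (4.7, 3.1 and 4.61 against 0.835, 0.882 and 0.689 CPM) and not in MIA PaCa-2 (20.8, 7.36 and 11 against 13.6, 10.5 and 11.5 CPM; difference 2.23 ± 0.499, kept in 1 of 12 fits, adjusted p up to 0.0931). H2BC5 had risen in MIA PaCa-2 (54.1, 34.4 and 38.1 against 18.8, 19.8 and 21.8 CPM) and not in PANC-1 (40.1, 35.7 and 35.3 against 37.7, 52.8 and 44.1 CPM; difference -1.34 ± 0.258, kept in 9 of 12 fits, adjusted p up to 0.0555). Of 25 mitosis genes, 1 rose in PANC-1 (median 0.29) and 7 in MIA PaCa-2 (median 0.37), with no difference called, against 3.37% and 12.3% of all genes measured in both lines. Of DNA replication genes, 0 of 27 changed in PANC-1 by edgeR (11 higher and 0 lower at an unadjusted p under 0.05, 8 and 0 by DESeq2; median 0.33) and 1 rose in MIA PaCa-2 (median 0.03).

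Outside these lists, the p53-induced nuclease AEN rose by log2 1.21 ± 0.171 in PANC-1 and 0.98 ± 0.176 in MIA PaCa-2, the laminin chain LAMB3 by 2.71 ± 0.415 in PANC-1 and 2.18 ± 0.455 in MIA PaCa-2, and NRIP1, a corepressor of nuclear receptors, by 1.45 ± 0.185 in PANC-1 and 1.13 ± 0.25 in MIA PaCa-2. ANKRD1, a YAP target, was at 6.85, 4.88 and 5.17 CPM in PANC-1 with 3A4, against 0.491, 0.441 and 0.497 with DMSO, and at 1.51, 3.7 and 2.12 CPM in MIA PaCa-2 with 3A4, where it was listed at 0 in all 3 DMSO libraries. The 3A4 libraries stood above the DMSO libraries in both lines for AEN, LAMB3 and NRIP1, and in PANC-1 for ANKRD1. In MIA PaCa-2 ANKRD1 passed the count filter only through the 3A4 libraries, so its direction there was set by that choice.

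Genes that fell in both lines included sterol enzymes and guidance receptors. H19 (ENSG00000130600; chromosome 11, 1995176 to 2001470), an imprinted long noncoding RNA, was at 62, 114 and 60.9 CPM in PANC-1 with 3A4, against 280, 333 and 231 with DMSO. H19 in MIA PaCa-2 was at 3.48, 1.58 and 2.75 CPM with 3A4, against 11.1, 12.4 and 8.9 with DMSO (log2 -1.83 ± 0.26 SE, adjusted p = 0.00297 in PANC-1; log2 -2.16 ± 0.337 SE, adjusted p = 0.00197 in MIA PaCa-2). SEMA6C, a transmembrane semaphorin, had log2 fold changes of -1.86 ± 0.306 in PANC-1 and -1.51 ± 0.309 in MIA PaCa-2, and PLXND1, a semaphorin receptor, -0.92 ± 0.115 in PANC-1 and -0.64 ± 0.117 in MIA PaCa-2. Both were without overlap of 3A4 and DMSO libraries in each line. Of the 16 semaphorins, neuropilins and plexins measured, 1 rose and 6 fell in PANC-1, 2 rose and 7 fell in MIA PaCa-2, and 3 changed together. Over all genes measured in both lines, 3.37% rose and 3.72% fell in PANC-1, and 12.3% rose and 9.14% fell in MIA PaCa-2.

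**Figure D2:**
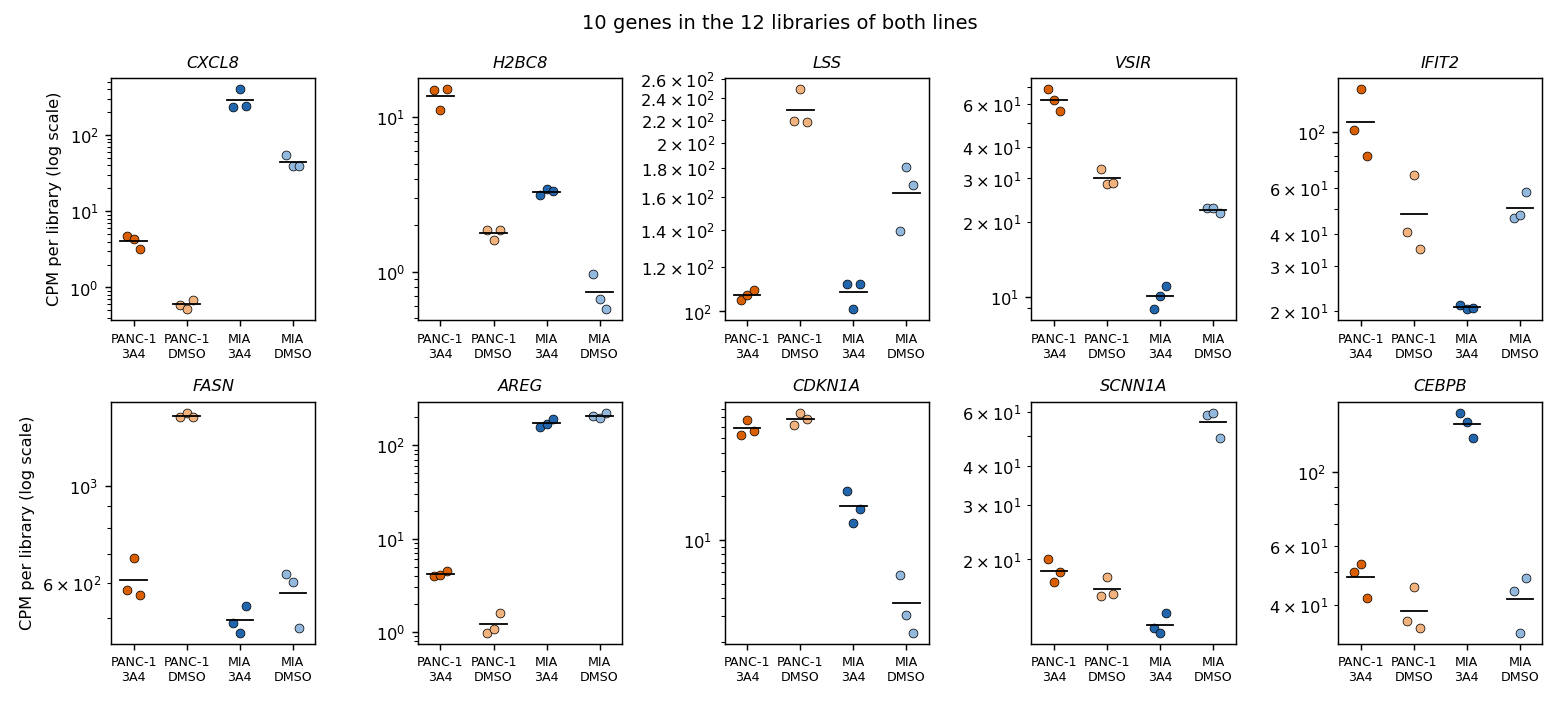
CPM of 10 genes in each of the 12 libraries (points; log scale), with the mean of each group as a bar; groups run from PANC-1 with 3A4 to MIA PaCa-2 with DMSO. CXCL8 and H2BC8 are higher and LSS lower with 3A4 in both lines, VSIR and IFIT2 move in opposite directions, FASN and AREG differ from DMSO in PANC-1, and CDKN1A, SCNN1A and CEBPB in MIA PaCa-2.

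Genes of fatty acid synthesis fell in PANC-1, and for FASN, SCD and FADS1 the difference between the lines was called. FASN (ENSG00000169710; chromosome 17, 82078333 to 82098332), which builds palmitate, was at 579, 685 and 562 CPM in PANC-1 with 3A4, against 1430, 1463 and 1431 with DMSO. FASN in MIA PaCa-2 was at 487, 462 and 532 CPM with 3A4, against 629, 602 and 473 with DMSO. The groups were apart in PANC-1 and overlapped in MIA PaCa-2. FASN fell in PANC-1 (log2 -1.24 ± 0.125 SE, adjusted p = 0.000681), not detectably in MIA PaCa-2 (-0.20 ± 0.125, adjusted p = 0.284), and the difference was called (log2 -1.04 ± 0.176, adjusted p = 0.0125). SCD (ENSG00000099194; chromosome 10, 100347124 to 100364834), which puts the double bond into stearate, was at 1518, 2497 and 1613 CPM in PANC-1 with 3A4, against 6515, 11413 and 6549 with DMSO. SCD in MIA PaCa-2 was at 988, 1302 and 1189 CPM with 3A4, against 1588, 1769 and 1317 with DMSO. Replicate 2 was the highest PANC-1 library in both groups, and the groups stayed apart in each line. SCD fell in PANC-1 (log2 -2.12 ± 0.239 SE, adjusted p = 0.000933) and its difference was called (log2 -1.69 ± 0.339 SE, adjusted p = 0.0248; kept in 9 of 12 fits, adjusted p up to 0.0687, lost without PANC-1 3A4 replicates 1 and 3 and without MIA PaCa-2 DMSO replicate 3).

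SREBF1 (ENSG00000072310; chromosome 17, 17810399 to 17837002), the regulator of both genes, was at 66.5, 91.4 and 67.7 CPM in PANC-1 with 3A4, against 148, 254 and 183 with DMSO. SREBF1 in MIA PaCa-2 was at 123, 115 and 104 CPM with 3A4, against 162, 171 and 139 with DMSO. It fell in PANC-1 (log2 -1.37 ± 0.189 SE, adjusted p = 0.00244), the libraries of MIA PaCa-2 were also apart at a smaller log2 of -0.47 ± 0.19 (adjusted p = 0.107), and the difference did not pass (-0.90 ± 0.268, adjusted p = 0.0895). Its locus overlaps RAI1, and the strand setting of the counting is not given in the sources used here, so reads of the 2 genes may be mixed. FADS1 (ENSG00000149485; chromosome 11, 61799625 to 61829318), the delta-5 desaturase of long fatty acids, changed in opposite directions. It was at 251, 314 and 303 CPM in PANC-1 with 3A4, against 561, 755 and 535 with DMSO. FADS1 in MIA PaCa-2 was at 74.5, 84.2 and 65.3 CPM with 3A4, against 47.6, 54.8 and 41.3 with DMSO. It fell in PANC-1 (log2 -1.09 ± 0.161 SE, adjusted p = 0.00311) and rose in MIA PaCa-2 (log2 0.63 ± 0.167 SE, adjusted p = 0.023; kept in 9 of 12 fits, adjusted p up to 0.0821), and the difference was -1.72 ± 0.232 (adjusted p = 0.00408). Its neighbour FADS2, the delta-6 desaturase, whose locus overlaps that of FADS1, fell in both: 197, 307 and 201 against 728, 963 and 679 CPM in PANC-1 and 19.6, 11.7 and 15.6 against 33.8, 38 and 39.3 CPM in MIA PaCa-2 (log2 -1.75 ± 0.208 in PANC-1 and -1.26 ± 0.224 in MIA PaCa-2).

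Over the 15 genes of fatty acid synthesis, 7 fell and none rose by edgeR in PANC-1 (0 at an unadjusted p under 0.05, 0 by DESeq2), at a median log2 fold change of -0.81. In MIA PaCa-2 3 fell and 1 rose, with a median of -0.34, and 3 differences were called, each lower in PANC-1. The shares of all measured genes that fell were 3.72% in PANC-1 and 9.14% in MIA PaCa-2, and 2.24% had a difference called lower in PANC-1. Of 21 genes of cholesterol synthesis and uptake, 5 fell in PANC-1 (median -0.51) and 6 in MIA PaCa-2 (median -0.12), 3 of them in both. LSS (ENSG00000160285; chromosome 21, 46188141 to 46228824), which closes the sterol ring as lanosterol synthase, was a shared member, at 105, 107 and 109 CPM in PANC-1 with 3A4, against 219, 249 and 218 with DMSO, and 112, 101 and 112 CPM in MIA PaCa-2 with 3A4, against 139, 181 and 168 with DMSO (log2 -1.09 ± 0.117 SE, adjusted p = 0.000728 in PANC-1; log2 -0.59 ± 0.118 SE, adjusted p = 0.00649 in MIA PaCa-2). FDPS, the farnesyl diphosphate synthase, fell in both lines, with log2 fold changes of -0.90 ± 0.134 in PANC-1 and -0.52 ± 0.134 in MIA PaCa-2 (kept in 8 of 12 fits, adjusted p up to 0.0816). TM7SF2, a sterol reductase whose locus overlaps VPS51, had log2 fold changes of -1.72 ± 0.255 in PANC-1 and -1.51 ± 0.267 in MIA PaCa-2. The isomerase IDI1 was at 65.6, 63.3 and 85.1 CPM in PANC-1 with 3A4, against 144, 147 and 148 with DMSO. IDI1 in MIA PaCa-2 was at 54, 88.5 and 45.2 CPM with 3A4, against 47.5, 56.6 and 53.7. Its fall in PANC-1 (-1.04 ± 0.209) was kept in 9 of 12 fits, adjusted p up to 0.0783, and its difference (-1.29 ± 0.299, adjusted p = 0.0417) was kept in 3 of 12 fits, adjusted p up to 0.107.

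Export genes that define an LXR agonist response showed no called change with 3A4. ABCA1 (ENSG00000165029; chromosome 9, 104781002 to 104928237), which exports cholesterol, was at 6.05, 10 and 9.02 CPM in PANC-1 with 3A4, against 5.7, 8.78 and 7.34 with DMSO. ABCA1 in MIA PaCa-2 was at 10.1, 16.4 and 18.7 CPM with 3A4, against 14.9, 16.6 and 8.9 with DMSO. The groups overlapped in both lines, and the 95% interval of the log2 fold change ran from -0.44 to 0.84 in PANC-1 and from -0.50 to 0.80 in MIA PaCa-2. ABCG1, its partner, was at 0.876, 0.62 and 0.685 CPM in PANC-1 with 3A4, against 1.13, 1.52 and 0.803 with DMSO. ABCG1 in MIA PaCa-2 was at 10.2, 4.2 and 10.7 CPM with 3A4, against 17, 11.8 and 14.1. The 3A4 libraries lay below the DMSO libraries in MIA PaCa-2 and overlapped them in PANC-1, and the test was not passed (adjusted p = 0.381 in PANC-1 and 0.144 in MIA PaCa-2). MYLIP, which targets the LDL receptor to the lysosome, had intervals of -0.21 to 0.40 in PANC-1 and -0.27 to 0.37 in MIA PaCa-2, and the receptor genes NR1H2 and NR1H3 were not called in either line (log2 -0.03 ± 0.135 and 0.17 ± 0.238 in PANC-1, -0.15 ± 0.138 and 0.08 ± 0.261 in MIA PaCa-2). Of 13 LXR targets, 3 fell in PANC-1 and 1 in MIA PaCa-2, none rose in either line by edgeR (0 in PANC-1 and 1 in MIA PaCa-2 at an unadjusted p under 0.05, 0 and 1 by DESeq2), and no difference was called (0 higher and 4 lower at an unadjusted p under 0.05, 0 and 3 by DESeq2). Falls were called for 3.72% of all measured genes in PANC-1 and 9.14% in MIA PaCa-2. LPCAT3, an LXR target that remodels phospholipids, fell in both: 34.3, 37.9 and 36.2 against 60.5, 58.2 and 53.7 CPM in PANC-1 (kept in 6 of 12 fits, adjusted p up to 0.132) and 36.6, 24.5 and 36.6 against 53.6, 70.2 and 70.3 CPM in MIA PaCa-2.

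Genes of the lipid droplet moved in both directions. PLIN2, the droplet coat protein, was at 65, 81.2 and 72.4 CPM in PANC-1 with 3A4, against 21.3, 24.5 and 20.2 with DMSO. PLIN2 in MIA PaCa-2 was at 126, 90.8 and 96.8 CPM with 3A4, against 72.5, 74.1 and 58.3 with DMSO. It rose in both lines (log2 1.73 ± 0.155 in PANC-1 and 0.61 ± 0.156 in MIA PaCa-2, the second kept in 10 of 12 fits, adjusted p up to 0.0737), more in PANC-1 by 1.12 ± 0.22 (adjusted p = 0.0235; kept in 7 of 12 fits, adjusted p up to 0.0637). PLIN4 fell in both (log2 -1.44 ± 0.277, kept in 9 of 12 fits, adjusted p up to 0.0704; and -1.67 ± 0.383, kept in 11 of 12 fits, adjusted p up to 0.0538). HILPDA, a droplet protein induced by low oxygen, was at 23.6, 35.2 and 22.8 CPM in PANC-1 with 3A4, against 55.1, 93.3 and 79.3 with DMSO. HILPDA in MIA PaCa-2 was at 11.7, 16.3 and 14 CPM with 3A4, against 13.1, 13.3 and 15.2. It fell in PANC-1 alone of the lines, with a difference of -1.51 ± 0.32 (kept in 3 of 12 fits, adjusted p up to 0.0836).

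**Figure D3:**
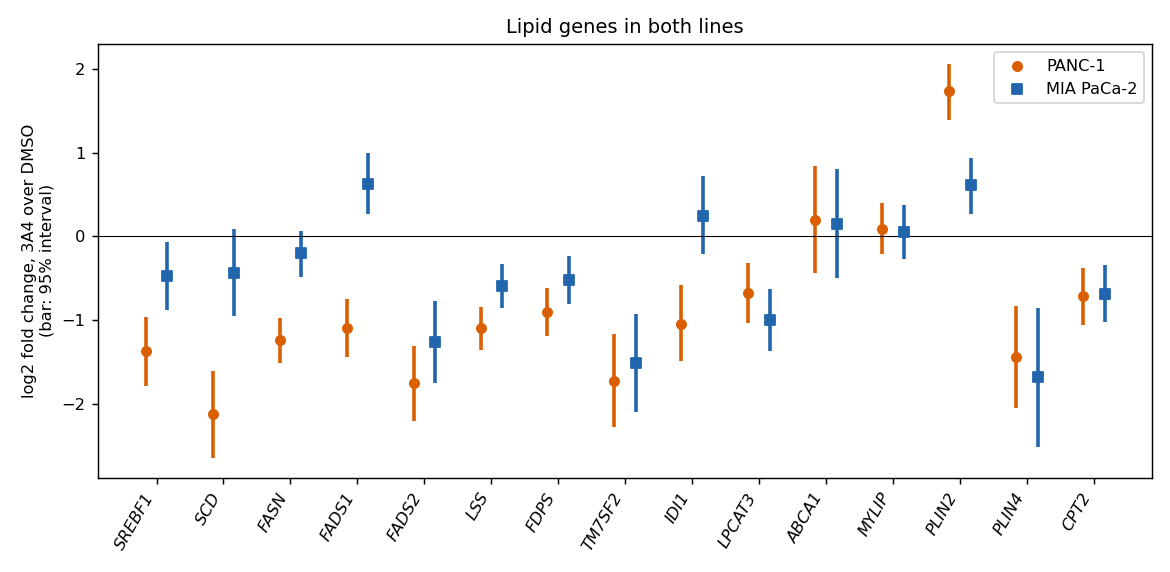
Log2 fold change of 3A4 over DMSO for 15 lipid genes in PANC-1 (circles) and MIA PaCa-2 (squares), with 95% intervals from the fit of 12 libraries. SCD, FASN and FADS1 stand well below 0 in PANC-1 and near or above 0 in MIA PaCa-2, FADS2, LSS and TM7SF2 are below 0 in both, and the intervals of ABCA1 and MYLIP include 0 in both.

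Among the 38 genes that changed in opposite directions, VSIR gave the smallest adjusted p for the difference of those named here. VSIR (ENSG00000107738; chromosome 10, 71747559 to 71773498), the immune checkpoint protein VISTA, was at 68.5, 62.3 and 56.3 CPM in PANC-1 with 3A4, against 32.9, 28.5 and 28.7 with DMSO. VSIR in MIA PaCa-2 was at 8.94, 10.1 and 11.1 CPM with 3A4, against 22.8, 22.8 and 21.8 with DMSO. The groups were apart in both lines, upward in PANC-1 (log2 1.06 ± 0.131 SE, adjusted p = 0.00148) and downward in MIA PaCa-2 (log2 -1.16 ± 0.141 SE, adjusted p = 0.000577), and the difference was 2.21 ± 0.192 (adjusted p = 0.000234). DHRS3 (ENSG00000162496; chromosome 1, 12567910 to 12617731), which turns retinal back to retinol, was at 111, 82.9 and 88 CPM in PANC-1 with 3A4, against 43.5, 47.2 and 35.9 with DMSO. DHRS3 in MIA PaCa-2 was at 15.2, 8.11 and 12.3 CPM with 3A4, against 39.8, 37.8 and 37.9 with DMSO (log2 1.15 ± 0.195 SE, adjusted p = 0.00652 in PANC-1; log2 -1.72 ± 0.208 SE, adjusted p = 0.000595 in MIA PaCa-2). STRA6, the membrane receptor for the retinol carrier, followed the same pattern at low level in PANC-1, with 1.43, 1.82 and 0.498 CPM with 3A4 against 0.491, 0.321 and 0.306 with DMSO (kept in 8 of 12 fits, adjusted p up to 0.0942), and 23.6, 16.7 and 22.1 against 44.6, 43 and 48.2 CPM in MIA PaCa-2 (kept in 10 of 12 fits, adjusted p up to 0.0744). Its locus overlaps CCDC33. In PANC-1 STRA6 passed the count filter only through the 3A4 libraries, so its direction in that line was set by that choice.

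SERPINA3 (ENSG00000196136; chromosome 14, 94612377 to 94624055), a secreted protease inhibitor of the acute phase, was at 13.2, 26.9 and 16.9 CPM in PANC-1 with 3A4, against 4.91, 4.85 and 3.18 with DMSO. SERPINA3 in MIA PaCa-2 was at 171, 102 and 283 CPM with 3A4, against 819, 628 and 982 with DMSO. CD14, a lipopolysaccharide co-receptor and marker of monocytes, was at 2.95, 4.11 and 3.92 CPM in PANC-1 with 3A4, against 1.13, 0.762 and 0.765 with DMSO. CD14 in MIA PaCa-2 was at 4.76, 2.37 and 4.18 CPM with 3A4, against 14.1, 19.3 and 18.4 with DMSO. Both rose in PANC-1 and fell in MIA PaCa-2, with differences of log2 4.28 ± 0.501 (adjusted p = 0.00233) and 4.26 ± 0.425 (adjusted p = 0.000699), and the groups were apart in each line. The levels of other markers of cells that the culture should not hold, PTPRC and CD68 among them, are given above, and whether monocytes were present was not tested. PTGES, the last enzyme of prostaglandin E2 synthesis, ran the same way (difference 2.17 ± 0.29, adjusted p = 0.00397; its rise in PANC-1 kept in 4 of 12 fits, adjusted p up to 0.115), as did the zinc finger gene ZNF488 (difference 3.22 ± 0.525, adjusted p = 0.0109; its rise in PANC-1 kept in 3 of 12 fits, adjusted p up to 0.175). TIMP1, an inhibitor of metalloproteases, had log2 fold changes of 0.64 ± 0.157 in PANC-1 (kept in 7 of 12 fits, adjusted p up to 0.136) and -0.52 ± 0.157 in MIA PaCa-2 (kept in 3 of 12 fits, adjusted p up to 0.157), with a difference of 1.16 ± 0.222 (kept in 8 of 12 fits, adjusted p up to 0.0636).

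In the other direction, SEMA3C (ENSG00000075223; chromosome 7, 80742538 to 80922359), a secreted semaphorin, was at 207, 262 and 214 CPM in PANC-1 with 3A4, against 487, 742 and 582 with DMSO. SEMA3C in MIA PaCa-2 was at 196, 272 and 164 CPM with 3A4, against 139, 116 and 74 with DMSO. It fell in PANC-1 (log2 -1.41 ± 0.238 SE, adjusted p = 0.00676) and rose in MIA PaCa-2 (log2 0.94 ± 0.241 SE, adjusted p = 0.0207; kept in 10 of 12 fits, adjusted p up to 0.0906), with groups apart in both. MLXIP, a glucose-sensing partner of MLX, was at 141, 149 and 124 CPM in PANC-1 with 3A4, against 271, 305 and 256 with DMSO. MLXIP in MIA PaCa-2 was at 39.1, 43.8 and 40.6 CPM with 3A4, against 31, 28.5 and 19.5. Its difference was -1.63 ± 0.215 (adjusted p = 0.00397). Its rise in MIA PaCa-2 was kept in 11 of 12 fits, adjusted p up to 0.0566. The transcription regulator genes TFCP2L1 (-2.21 ± 0.313, adjusted p = 0.00547), SOX4 (-1.81 ± 0.304, adjusted p = 0.0105) and CITED4 (-1.73 ± 0.251, adjusted p = 0.00593) gave differences of the same sign. The fall in PANC-1 was kept in 7 of 12 fits, adjusted p up to 0.0958, for TFCP2L1 and kept in 6 of 12 fits, adjusted p up to 0.148, for CITED4, and the rise of SOX4 in MIA PaCa-2 was kept in 5 of 12 fits, adjusted p up to 0.136. The lysosomal enzyme gene HGSNAT (-1.53 ± 0.261, adjusted p = 0.0132) and the integrin ITGB1 (-0.91 ± 0.148, adjusted p = 0.01) had differences that held, while the fall of HGSNAT in PANC-1 was kept in 9 of 12 fits, adjusted p up to 0.0731, and its rise in MIA PaCa-2 kept in 3 of 12 fits, adjusted p up to 0.151. ITGB1 was at 953, 972 and 912 CPM in PANC-1 with 3A4, against 1429, 1329 and 1482 with DMSO. ITGB1 in MIA PaCa-2 was at 886, 1026 and 1086 CPM with 3A4, against 816, 834 and 739, and its rise in MIA PaCa-2 was kept in 1 of 12 fits, adjusted p up to 0.142. SKIL, a SMAD corepressor, had a difference of -1.58 ± 0.305 (kept in 8 of 12 fits, adjusted p up to 0.0621), with its fall in PANC-1 kept in 7 of 12 fits, adjusted p up to 0.145, and its rise in MIA PaCa-2 kept in 8 of 12 fits, adjusted p up to 0.134.

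Of the interferon response genes, IFIT1 and IFIT2 belonged to the opposite class. Of 16 measured, 2 rose and none fell in PANC-1, at a median log2 fold change of 0.29. In MIA PaCa-2 8 fell and none rose, at a median of -0.76. For the directions without an edgeR call, 1 fell in PANC-1 and 0 rose in MIA PaCa-2 at an unadjusted p under 0.05, and 0 and 0 by DESeq2. The differences of 3 members were called, all higher in PANC-1. Among all measured genes, 3.37% rose in PANC-1, 9.14% fell in MIA PaCa-2 and 1.28% had a difference called higher in PANC-1. IFIT2 (ENSG00000119922; chromosome 10, 89283694 to 89309276) was at 101, 146 and 80.2 CPM in PANC-1 with 3A4, against 40.6, 67.5 and 34.8 with DMSO. IFIT2 in MIA PaCa-2 was at 21, 20.3 and 20.5 CPM with 3A4, against 46.2, 47.3 and 58 with DMSO. The groups were apart in both lines (log2 1.20 ± 0.247 SE, adjusted p = 0.0169, kept in 8 of 12 fits, adjusted p up to 0.0672, in PANC-1; log2 -1.29 ± 0.257 SE, adjusted p = 0.00668 in MIA PaCa-2), and the difference was 2.48 ± 0.356 (adjusted p = 0.00593). IFIT1 (ENSG00000185745; chromosome 10, 89392546 to 89406486) was at 70.3, 89.4 and 77.2 CPM in PANC-1 with 3A4, against 47.5, 52.1 and 40.2 with DMSO. IFIT1 in MIA PaCa-2 was at 33.7, 20.8 and 24.5 CPM with 3A4, against 69.3, 69.2 and 81.2 with DMSO (difference 2.24 ± 0.249, adjusted p = 0.00167). Its rise in PANC-1 was kept in 6 of 12 fits, adjusted p up to 0.101. The proteins of this family bind viral RNA. Their loci overlap that of LIPA on the other strand, so their counts may hold reads of LIPA.

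BST2, the membrane tether of budding viruses, was at 7.52, 6.71 and 3.86 CPM in PANC-1 with 3A4, against 6.28, 7.5 and 3.86 with DMSO. BST2 in MIA PaCa-2 was at 5.46, 2.62 and 6.04 CPM with 3A4, against 27.4, 19.8 and 35.3 with DMSO. It fell in MIA PaCa-2 (log2 -2.55 ± 0.368 SE, adjusted p = 0.00148) and the PANC-1 groups overlapped (difference 2.60 ± 0.516; kept in 8 of 12 fits, adjusted p up to 0.0682). OAS2 and OASL, of the family that senses double-stranded RNA, fell in MIA PaCa-2 as well: OAS2 was at 0.812, 0.166 and 0.476 CPM with 3A4, against 4.01, 1.15 and 2.3 with DMSO (kept in 10 of 12 fits, adjusted p up to 0.0971), and OASL at 6.73, 3.08 and 3.44 against 26.9, 9.4 and 16.1 (kept in 9 of 12 fits, adjusted p up to 0.071). In PANC-1 OAS2 was at 5.49, 9.57 and 3.8 CPM with 3A4, against 5.7, 7.22 and 4.02, and OASL at 13.7, 28.1 and 12.9, against 14.3, 21.7 and 9.56, and neither passed. Of 14 genes of MHC class I presentation, 1 rose and 1 fell in PANC-1, and 1 rose and 3 fell in MIA PaCa-2. The shares over all measured genes were 3.37% and 3.72% in PANC-1 and 12.3% and 9.14% in MIA PaCa-2. In this list the differences of the immunoproteasome subunit PSMB9 (1.90 ± 0.385, kept in 6 of 12 fits, adjusted p up to 0.0705) and the peptidase ERAP2 (1.21 ± 0.269, kept in 4 of 12 fits, adjusted p up to 0.102) were called.

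The interferon-stimulated response element was searched in promoters as the letters GAAA, any 2 letters and GAAA, on both strands, with letters chosen after the values were seen. Of the 10 interferon list promoters found there 70% held it, and of the 80 of genes that fell in MIA PaCa-2 with a called difference 12.5%, against 2.62% of genes measured in both lines and 3.65% of all promoters. The stretches are shown for 3 genes with a fall in MIA PaCa-2, with the matched letters in capitals. A match that reads TTTC in place of GAAA is on the other strand.
IFIT1 (chr10:89392495-89392554, plus strand): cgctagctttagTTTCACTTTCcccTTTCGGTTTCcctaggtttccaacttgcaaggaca
IFIT3 (chr10:89327850-89327909, plus strand): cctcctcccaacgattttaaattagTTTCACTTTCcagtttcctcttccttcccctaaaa
BST2 (chr19:17405720-17405779, minus strand): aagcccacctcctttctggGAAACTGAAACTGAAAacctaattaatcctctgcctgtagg
IFIT3 was at 45.1, 68.6 and 34.5 CPM in PANC-1 with 3A4, against 28.3, 32.7 and 18.2 with DMSO. IFIT3 in MIA PaCa-2 was at 23.7, 16.9 and 16.6 CPM with 3A4, against 40.1, 33.2 and 34.2 with DMSO. Its difference (log2 1.82 ± 0.378 SE, adjusted p = 0.0278) was kept in 4 of 12 fits, adjusted p up to 0.0658, and its fall in MIA PaCa-2 was kept in 5 of 12 fits, adjusted p up to 0.134.

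NF-kB is the factor behind much of the inflammatory program. Of 14 subunits and feedback genes, 4 rose in PANC-1 and 7 in MIA PaCa-2, 2 of them in both, and 4 differences were called, each lower in PANC-1 (TNFAIP3, BIRC3, TRAF1 and IER3). Rises were called for 3.37% of all measured genes in PANC-1 and 12.3% in MIA PaCa-2, and a difference lower in PANC-1 for 2.24%. The size of the IER3 difference and the number of fits that kept it are not reported here. TNFAIP3 (ENSG00000118503; chromosome 6, 137867188 to 137883312), the deubiquitinase A20 that ends NF-kB signals, was at 20.4, 15.6 and 15.2 CPM in PANC-1 with 3A4, against 9.67, 6.78 and 9.83 with DMSO. TNFAIP3 in MIA PaCa-2 was at 19.8, 18.6 and 18.6 CPM with 3A4, against 2.08, 2.97 and 2.58 with DMSO. It rose in both (log2 0.96 ± 0.194 SE, adjusted p = 0.0149, kept in 10 of 12 fits, adjusted p up to 0.084, in PANC-1; log2 2.88 ± 0.234 SE, adjusted p = 7.94e-05 in MIA PaCa-2), with a difference of -1.92 ± 0.304 (adjusted p = 0.00842). BIRC3 (ENSG00000023445; chromosome 11, 102317450 to 102339403), an inhibitor of apoptosis, was at 281, 245 and 235 CPM in PANC-1 with 3A4, against 142, 94.8 and 137 with DMSO. BIRC3 in MIA PaCa-2 was at 59.5, 79.4 and 70.3 CPM with 3A4, against 13.6, 11.2 and 14.6 with DMSO (difference log2 -1.40 ± 0.249 SE, adjusted p = 0.0158). The adaptor TRAF1 was at 22.7, 25.8 and 17.7 CPM in PANC-1 with 3A4, against 16.1, 22.2 and 17 with DMSO. TRAF1 in MIA PaCa-2 was at 89.8, 68.6 and 73 CPM with 3A4, against 25.8, 16.3 and 21.5 with DMSO. It rose in MIA PaCa-2 alone of the lines, with a difference of -1.61 ± 0.291 (adjusted p = 0.0174).

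Letters of an NF-kB site, like those of the interferon element, were chosen after the values were seen, as GGG, any 2 letters, TT, any letter and CC, on both strands. They stood in 60% of the 10 promoters of this list and 66.7% of the 6 chemokine promoters in the table, against 6.76% of genes measured in both lines and 5.67% of all promoters. In the promoters of genes that rose in MIA PaCa-2 with a called difference they stood in 4.02%. They are shown in capitals for CXCL2, which rose in both lines with no called difference, and for BIRC3 and TNFAIP3, which rose further in MIA PaCa-2.
CXCL2 (chr4:74099239-74099298, minus strand): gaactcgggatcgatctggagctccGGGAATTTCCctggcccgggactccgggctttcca
BIRC3 (chr11:102317260-102317319, plus strand): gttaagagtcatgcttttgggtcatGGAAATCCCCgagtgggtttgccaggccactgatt
TNFAIP3 (chr6:137867179-137867238, plus strand): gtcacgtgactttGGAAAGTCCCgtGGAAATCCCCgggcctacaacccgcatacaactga
CXCL2 was at 2.75, 1.36 and 1.43 CPM in PANC-1 with 3A4, against 0.442, 0 and 0.268 with DMSO. CXCL2 in MIA PaCa-2 was at 45.7, 39.3 and 40.3 CPM with 3A4, against 12.3, 9.01 and 7.46 with DMSO, with a difference of 0.89 ± 0.733 (adjusted p = 0.51). Its rise in PANC-1, where DMSO levels were near 0, was kept in 11 of 12 fits, adjusted p up to 0.0523. CXCL2 passed the count filter in PANC-1 only through the 3A4 libraries, so that direction was set by the choice.

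Genes called in PANC-1 with a called difference included growth factor and protease genes. AREG (ENSG00000109321; chromosome 4, 74445134 to 74455009), a ligand of the EGF receptor, was at 3.98, 4.07 and 4.54 CPM in PANC-1 with 3A4, against 0.982, 1.08 and 1.61 with DMSO. AREG in MIA PaCa-2 was at 156, 168 and 193 CPM with 3A4, against 208, 194 and 221 with DMSO. It rose in PANC-1 (log2 1.75 ± 0.185 SE, adjusted p = 0.000728), where its level stayed far below that of either MIA PaCa-2 group, and the 95% interval in MIA PaCa-2 was -0.57 to 0.04. PLAU (ENSG00000122861; chromosome 10, 73909177 to 73917497), the plasminogen activator urokinase, was at 745, 806 and 612 CPM in PANC-1 with 3A4, against 365, 266 and 276 with DMSO. PLAU in MIA PaCa-2 was at 220, 185 and 247 CPM with 3A4, against 230, 220 and 213 with DMSO. The groups were apart in PANC-1 and overlapped in MIA PaCa-2, with a difference of 1.28 ± 0.216 (adjusted p = 0.0124). TMEM40 was at 1.79, 1.82 and 0.436 CPM in PANC-1 with 3A4, against 0, 0 and 0.0765 with DMSO. TMEM40 in MIA PaCa-2 was at 10.4, 9.48 and 8.1 CPM with 3A4, against 9.3, 13 and 18.4. The antisense gene BCAN-AS1 was at 1.67, 2.29 and 1.43 CPM in PANC-1 with 3A4, against 0.246, 0.361 and 0.497. BCAN-AS1 in MIA PaCa-2 was at 9.4, 10.1 and 12.6 CPM with 3A4, against 11.1, 12.8 and 10.6. Both were near 0 in PANC-1 with DMSO, so their folds are poorly set. They passed the count filter in that line only through the 3A4 libraries, so their direction was set by that choice. An antisense gene cannot be told apart from its partner without the strand.

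Of the genes that fell in PANC-1, ADRA2C, an adrenergic receptor, was at 5.49, 7.56 and 7.53 CPM in PANC-1 with 3A4, against 18.9, 15.6 and 18.3 with DMSO. ADRA2C in MIA PaCa-2 was at 21.4, 17.6 and 16.5 CPM with 3A4, against 15.4, 11.6 and 13.2 (difference log2 -1.82 ± 0.267 SE, adjusted p = 0.006). S100A10, the membrane partner of an annexin, was at 447, 453 and 412 CPM in PANC-1 with 3A4, against 874, 706 and 776 with DMSO. S100A10 in MIA PaCa-2 was at 297, 342 and 274 CPM with 3A4, against 292, 302 and 278 with DMSO. It fell in PANC-1, and the difference was -0.91 ± 0.163 (adjusted p = 0.0164). Other members were called with less stability. The taurine transporter SLC6A6 had a difference of -2.07 ± 0.401 (kept in 8 of 12 fits, adjusted p up to 0.0632), the glucose transporter SLC2A12 -1.74 ± 0.347 (kept in 7 of 12 fits, adjusted p up to 0.0616) and lactate dehydrogenase LDHA -0.95 ± 0.199 (kept in 6 of 12 fits, adjusted p up to 0.0757). The receptor phosphatase PTPRH rose in PANC-1, with a difference of 1.44 ± 0.276 (kept in 9 of 12 fits, adjusted p up to 0.0628), and the metallothionein MT1A by 1.76 ± 0.192, with a difference of 1.49 ± 0.275 (kept in 11 of 12 fits, adjusted p up to 0.0512). The differences of ZNF584 (1.82 ± 0.408), ZNF613 (-1.72 ± 0.371), CTXN1 (-1.07 ± 0.242), the bone morphogenetic protein BMP7 (-1.42 ± 0.337), ATP6V0E2-AS1 (1.64 ± 0.362) and the mitochondrial tRNA MT-TV (1.71 ± 0.372), all genes that changed in PANC-1, were kept in 1 to 3 of 12 fits, with a highest adjusted p between 0.0815 for ZNF613 and 0.111 for BMP7. The rise of ZNF584 in PANC-1 was kept in 11 of 12 fits, adjusted p up to 0.0586.

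Among the 110 genes that fell in MIA PaCa-2 with a called difference were some epithelial and secreted genes. Epithelial genes as a list went both ways: of 12 measured, 3 rose and 3 fell in MIA PaCa-2 (median log2 fold change 0.17). The shares over all genes measured in both lines were 12.3% and 9.14%. Differences were called for 3 of the 12, each higher in PANC-1, against 1.28% of all. SCNN1A (ENSG00000111319; chromosome 12, 6346843 to 6377730), the alpha subunit of the epithelial sodium channel, was at 20.1, 16.9 and 18.2 CPM in PANC-1 with 3A4, against 15.3, 17.5 and 15.5 with DMSO. SCNN1A in MIA PaCa-2 was at 12, 11.6 and 13.4 CPM with 3A4, against 58.4, 59.4 and 49.4 with DMSO. It fell in MIA PaCa-2 (log2 -2.18 ± 0.142 SE, adjusted p = 2.83e-05), and the PANC-1 interval was -0.11 to 0.50. Its locus overlaps LTBR. KRT15, a basal keratin, was at 29.3, 23.1 and 23.2 CPM in PANC-1 with 3A4, against 34.9, 22 and 29.8 with DMSO. KRT15 in MIA PaCa-2 was at 51.4, 25.7 and 46.7 CPM with 3A4, against 224, 218 and 209 with DMSO. SERPINF1, the secreted factor PEDF, was at 1.71, 2.56 and 1.93 CPM in PANC-1 with 3A4, against 2.75, 2.33 and 2.14. SERPINF1 in MIA PaCa-2 was at 15.3, 13.9 and 18.6 CPM with 3A4, against 63, 71.4 and 105. Both fell in MIA PaCa-2 with no overlap of the groups (differences 2.20 ± 0.328, adjusted p = 0.00682, and 2.11 ± 0.325, adjusted p = 0.00778). SHOX2, a homeobox gene whose locus overlaps RSRC1, had a difference of 2.38 ± 0.34 (adjusted p = 0.00576), and TKT, an enzyme of the pentose phosphate pathway, 1.09 ± 0.188 (adjusted p = 0.0142). IFITM2, whose reads may be shared with its near copy IFITM1, had 1.89 ± 0.357 (kept in 9 of 12 fits, adjusted p up to 0.0571). The pseudogene RPL12P38 was at 3.54, 3.29 and 5.54 CPM in PANC-1 with 3A4, against 4.86, 5.46 and 4.78 with DMSO. RPL12P38 in MIA PaCa-2 was at 0.812, 0.208 and 0.318 CPM with 3A4, against 40.7, 41.6 and 54 with DMSO, with a difference of 6.61 ± 0.487 (adjusted p = 0.000109), but may share reads with RPL12 and is uncertain.

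Genes that rose in MIA PaCa-2 and not in PANC-1 included regulators of the cell cycle and of stress. CDKN1A (ENSG00000124762; chromosome 6, 36676460 to 36687339), the CDK inhibitor p21, was at 52.6, 67.4 and 56.4 CPM in PANC-1 with 3A4, against 62.2, 74.7 and 68.1 with DMSO. CDKN1A in MIA PaCa-2 was at 21.9, 13 and 16.4 CPM with 3A4, against 5.77, 3.07 and 2.3 with DMSO. The groups overlapped in PANC-1 and were apart in MIA PaCa-2 (log2 2.16 ± 0.287 SE, adjusted p = 0.000787; difference -2.37 ± 0.365, adjusted p = 0.00749). CEBPB (ENSG00000172216; chromosome 20, 50190734 to 50192689), a leucine zipper factor of stress and inflammation, was at 50.2, 53 and 41.8 CPM in PANC-1 with 3A4, against 35.9, 45.1 and 34.2 with DMSO. CEBPB in MIA PaCa-2 was at 150, 141 and 126 CPM with 3A4, against 44.1, 33 and 48.2 with DMSO (log2 1.75 ± 0.166 SE, adjusted p = 0.000149 in MIA PaCa-2; difference -1.41 ± 0.232, adjusted p = 0.0105). AHR, the aryl hydrocarbon receptor, was at 60.5, 63.7 and 61.1 CPM in PANC-1 with 3A4, against 55.9, 71.8 and 73.6 with DMSO. AHR in MIA PaCa-2 was at 5.11, 12.4 and 11.1 CPM with 3A4, against 2.73, 2.01 and 1.72. TGFBI, a matrix protein induced by TGF-beta, was at 307, 359 and 326 CPM in PANC-1 with 3A4, against 325, 467 and 328 with DMSO. TGFBI in MIA PaCa-2 was at 41.3, 50.3 and 32.3 CPM with 3A4, against 16.8, 12 and 9.47. With DMSO, MIA PaCa-2 was below PANC-1 for CDKN1A, AHR and TGFBI and close to it for CEBPB, and differences were called for AHR (-2.27 ± 0.408, adjusted p = 0.0147) and TGFBI (-1.85 ± 0.304, adjusted p = 0.0105).

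A set of genes was listed at 0 in every MIA PaCa-2 DMSO library and seen in every MIA PaCa-2 3A4 library. There were 27 such genes among the 13964, and 3 with the like pattern in PANC-1. They passed the count filter of the line only through the 3A4 libraries, so their direction was set by the choice and their number is no result. They are nonetheless inside the counts of calls given above. All 27 were called higher in MIA PaCa-2, 17 had a called difference and 13 are among the 221 genes that rose there with one. The 3 of PANC-1 were called higher, 2 of them with a called difference. The DMSO libraries of MIA PaCa-2 were its shallowest, and the counts are derived from coverage, with counts of 1 and 2 scarcer than counts of 3 in every library, so a 0 may be a failed estimate and no fold is given. Of the 27, 6 were also listed at 0 in all 3 MIA PaCa-2 GW3965 libraries. LHFPL6 was at 25.5, 27.2 and 25.3 CPM in PANC-1 with 3A4, against 24.7, 25.3 and 25.6 with DMSO. LHFPL6 in MIA PaCa-2 was at 3.6, 5.49 and 3.81 CPM with 3A4, against 0. NEURL3, a ubiquitin ligase, was at 7.43, 6.24 and 8.31 CPM in MIA PaCa-2 with 3A4, against 0, SULF2, a heparan sulfate editing enzyme, at 2.79, 2.66 and 3.81, PLAG1, a zinc finger factor, at 2.32, 1.75 and 1.54, and ATXN1 at 1.86, 1.08 and 1.48. MYLK, the kinase of myosin light chains, was at 2.32, 2.25 and 2.81 CPM in MIA PaCa-2 with 3A4, against 0.481, 0 and 0 with DMSO, and at 33, 29.7 and 28.1 and 27.8, 22.3 and 23 in PANC-1 with 3A4 and DMSO. Its difference of -3.65 ± 0.847 is poorly set, at -8.21 without MIA PaCa-2 DMSO replicate 1 and -2.69 without MIA PaCa-2 DMSO replicate 2. MYLK, too, passed the count filter in MIA PaCa-2 only through the 3A4 libraries.

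Genes of the integrated stress response, which follow the factor ATF4, rose in MIA PaCa-2 in larger number than in PANC-1. Of 18 measured, 1 rose and 1 fell in PANC-1 (median log2 fold change -0.14), and 11 rose and 0 fell by edgeR in MIA PaCa-2 (median 1.07; 0 at an unadjusted p under 0.05, 0 by DESeq2). The difference of 4 members was called, each lower in PANC-1: CEBPB, DDIT4, CEBPG (kept in 8 of 12 fits, adjusted p up to 0.0701) and SESN2 (kept in 2 of 12 fits, adjusted p up to 0.115). SESN2, a stress-induced brake on mTOR, was at 43.7, 42.2 and 36 CPM in PANC-1 with 3A4, against 27.3, 42.1 and 22.1 with DMSO. SESN2 in MIA PaCa-2 was at 80.1, 82.9 and 82.6 CPM with 3A4, against 28.7, 28.6 and 22.7 with DMSO. DDIT4 (ENSG00000168209; chromosome 10, 72273920 to 72276036), which restrains mTOR signals, was at 81.5, 103 and 68.1 CPM in PANC-1 with 3A4, against 151, 337 and 178 with DMSO. DDIT4 in MIA PaCa-2 was at 232, 182 and 300 CPM with 3A4, against 128, 126 and 159 with DMSO. It fell in PANC-1 (log2 -1.40 ± 0.278 SE, adjusted p = 0.0146, kept in 10 of 12 fits, adjusted p up to 0.0739) and was at 0.79 ± 0.28 in MIA PaCa-2 (adjusted p = 0.0694), with groups apart in both and a difference of -2.19 ± 0.394 (kept in 11 of 12 fits, adjusted p up to 0.0505). PPP1R15A, the phosphatase subunit GADD34, was the shared member, at 77.5, 64.8 and 55.9 CPM in PANC-1 with 3A4, against 33.2, 29.3 and 21.8 with DMSO. PPP1R15A in MIA PaCa-2 was at 131, 125 and 105 CPM with 3A4, against 41.1, 33.8 and 22.1. ATF4 itself was at 222, 223 and 207 CPM in PANC-1 with 3A4, against 202, 316 and 206 with DMSO. ATF4 in MIA PaCa-2 was at 421, 354 and 381 CPM with 3A4, against 254, 220 and 234, rose in MIA PaCa-2, and its difference did not pass (adjusted p = 0.065).

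Amino acid genes, too, were called higher mainly in MIA PaCa-2, where 12.3% of all genes measured in both lines rose, against 3.37% in PANC-1. Of 27 genes of amino acid synthesis, transport and tRNA charging, 1 rose and 1 fell in PANC-1 (median -0.13), 14 rose and 1 fell in MIA PaCa-2 (median 0.43), and 6 differences were called, 5 of them lower in PANC-1. SLC7A11 (ENSG00000151012; chromosome 4, 138164097 to 138242349), the cystine importer, was at 39.7, 33.1 and 41.8 CPM in PANC-1 with 3A4, against 19, 55.8 and 25.2 with DMSO. SLC7A11 in MIA PaCa-2 was at 30.5, 36.8 and 27.4 CPM with 3A4, against 5.93, 5.08 and 2.58 with DMSO. The PANC-1 groups overlapped, with DMSO replicate 2 high, and the MIA PaCa-2 groups were apart (log2 2.73 ± 0.391 SE, adjusted p = 0.00114; difference -2.54 ± 0.513, kept in 6 of 12 fits, adjusted p up to 0.0644). CTH, which makes cysteine from cystathionine, was at 5.29, 5.81 and 4.17 CPM in PANC-1 with 3A4, against 7.51, 8.22 and 4.9. CTH in MIA PaCa-2 was at 26.5, 34.7 and 37.3 CPM with 3A4, against 15.1, 12.7 and 10.9 (difference -1.77 ± 0.327; kept in 11 of 12 fits, adjusted p up to 0.0505). PSAT1, of serine synthesis, was at 89.6, 104 and 87.3 CPM in PANC-1 with 3A4, against 147, 221 and 131. PSAT1 in MIA PaCa-2 was at 192, 211 and 190 CPM with 3A4, against 136, 148 and 121, and belonged to the opposite class (difference -1.37 ± 0.246; kept in 11 of 12 fits, adjusted p up to 0.0505; its fall in PANC-1 kept in 9 of 12 fits, adjusted p up to 0.0837; its rise in MIA PaCa-2 kept in 2 of 12 fits, adjusted p up to 0.146). SLC3A2, the heavy chain of several of these transporters, rose in both lines (log2 0.72 ± 0.128 in PANC-1 and 1.31 ± 0.131 in MIA PaCa-2).

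Chaperones of the cytosol rose by small folds in MIA PaCa-2. Of 14 heat shock proteins, 12 rose there, at a median log2 fold change of 0.57, and none was called in PANC-1, where the median was 0.36. In PANC-1 8 were higher and 0 lower at an unadjusted p under 0.05, and 3 were called higher and 0 lower by DESeq2. No difference between the lines was called (1 higher and 4 lower at an unadjusted p under 0.05, 0 and 3 by DESeq2), so this list is not shown to differ between them. HSPA1A was at 439, 313 and 359 CPM in PANC-1 with 3A4, against 288, 227 and 282 with DMSO. HSPA1A in MIA PaCa-2 was at 346, 206 and 314 CPM with 3A4, against 192, 152 and 127; its reads may be shared with its near copy HSPA1B. The 3A4 libraries lay above the DMSO libraries in both lines, and its rise in MIA PaCa-2 was kept in 11 of 12 fits, adjusted p up to 0.0602. Of 20 ER chaperone and unfolded protein response genes, 3 fell and none rose by edgeR in PANC-1 (1 at an unadjusted p under 0.05, 0 by DESeq2), and 9 rose and 3 fell in MIA PaCa-2, with no called difference (0 higher and 10 lower at an unadjusted p under 0.05, 0 and 8 by DESeq2). Of 16 NRF2 targets, 3 rose in PANC-1 and 7 rose and 3 fell in MIA PaCa-2, and the 3 of PANC-1 were shared. Beside this list and those of chaperones stand the shares over all measured genes. These were 3.37% higher and 3.72% lower in PANC-1, and 12.3% higher and 9.14% lower in MIA PaCa-2. HMOX1 (ENSG00000100292; chromosome 22, 35380361 to 35394214), the haem-degrading enzyme, was at 311, 219 and 289 CPM in PANC-1 with 3A4, against 122, 123 and 106 with DMSO. HMOX1 in MIA PaCa-2 was at 63.5, 54.4 and 71.5 CPM with 3A4, against 23.3, 16.3 and 30.4 with DMSO (log2 1.22 ± 0.195 SE, adjusted p = 0.00498 in PANC-1; log2 1.47 ± 0.208 SE, adjusted p = 0.00114 in MIA PaCa-2).

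**Figure D4:**
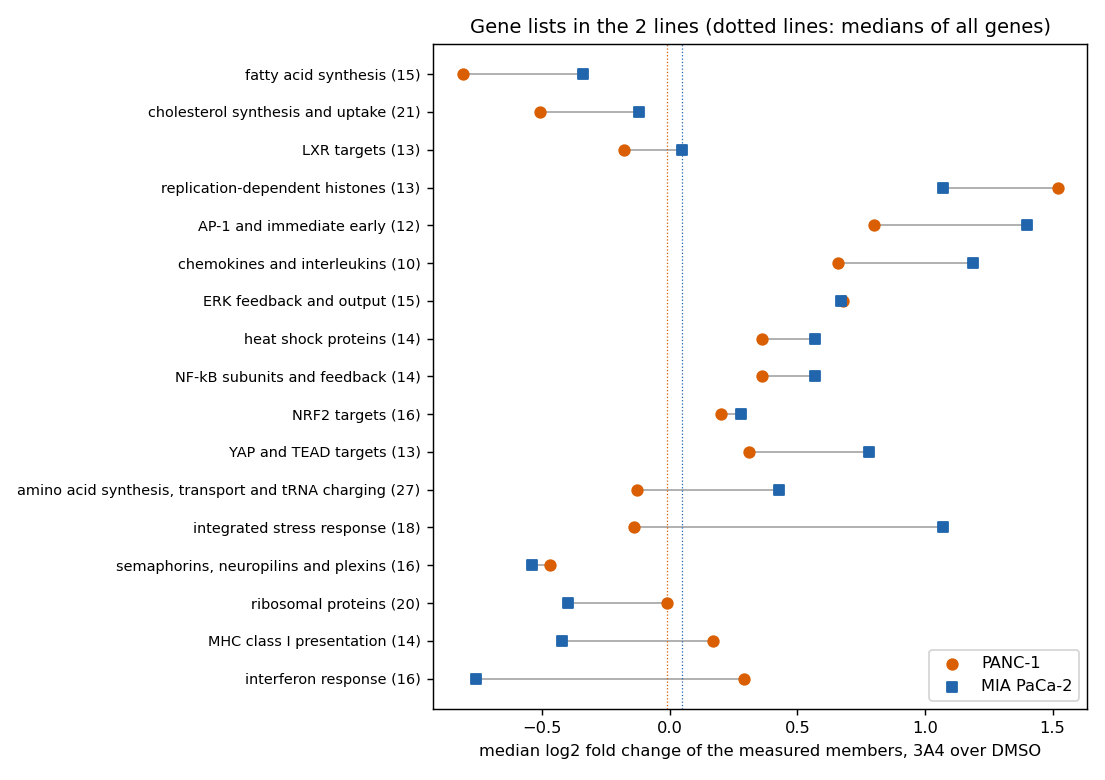
Median log2 fold change of 3A4 over DMSO of the measured members of 17 gene lists (number measured in brackets) in PANC-1 (circles) and MIA PaCa-2 (squares); dotted lines mark the medians of all genes, -0.01 and 0.05. The lines lie far apart for the integrated stress response (-0.14 and 1.07) and the interferon response (0.29 and -0.76), and close together for ERK feedback (0.68 and 0.67).

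BxPC-3, another pancreatic cancer line, which entered no class, gave a view of the classes in libraries they were not chosen on. It was given 3A4 and DMSO in 3 libraries each, grown in another medium, and only 7 of 17107 genes (0.0409%) were called there, 3 higher (0.0175%) and 4 lower (0.0234%). The shared genes that rose, 219 of them tested in BxPC-3, had a median log2 fold change of 0.32 with 89.0% above 0, and the 190 that fell had -0.24 with 10.0% above 0, against a median of -0.00 over all genes tested. Genes called in PANC-1 with a difference had medians of 0.31 (76.9% above 0, 39 genes that rose) and -0.27 (15.9%, 44 genes that fell). Those of MIA PaCa-2 had 0.01 (51.7%, 209 genes that rose) and -0.16 (31.8%, 107 genes that fell). Genes of the opposite class that rose in PANC-1 had 0.12 (58.8% of 17), and those that fell in PANC-1 had -0.18 (22.2% of 18). Of the shared genes that rose, 2 were called in BxPC-3, and no gene of the other classes was. These shares count genes, which are not replicates, and the 3 BxPC-3 DMSO libraries are shared by all of them. In BxPC-3 FASN had a log2 fold change of -0.48 ± 0.123 (adjusted p = 0.238), CDKN1A -0.05 ± 0.158 (0.917) and FADS1 -0.41 ± 0.114 (0.252).

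**Figure D5:**
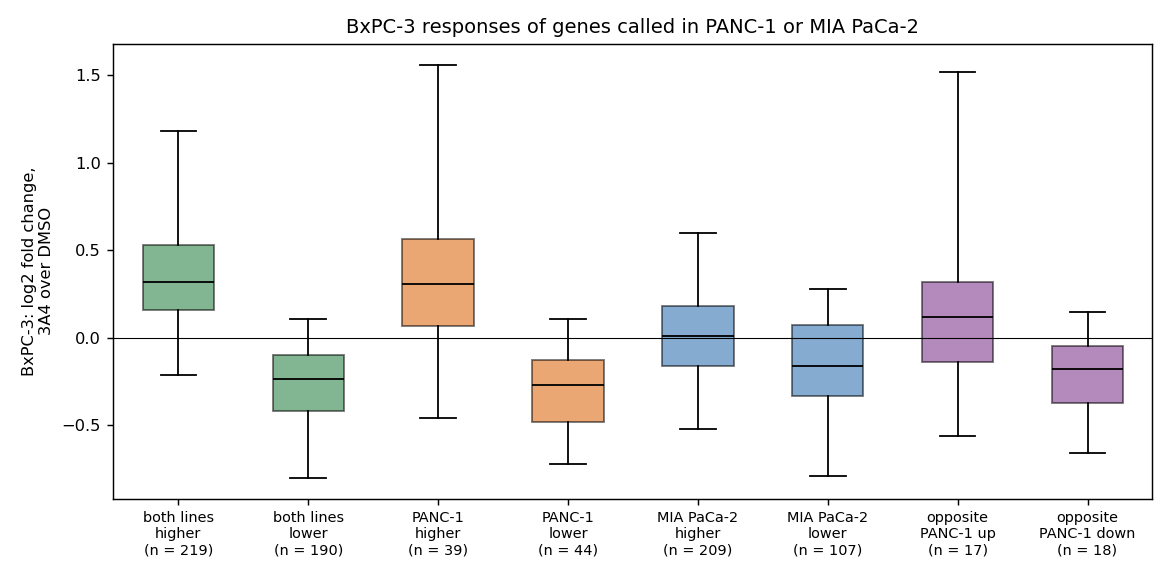
Log2 fold change of 3A4 over DMSO in BxPC-3 for the genes of each class, by direction (box: quartiles with the median; whiskers: 5th to 95th percentile of genes). Medians are 0.32 and -0.24 for shared genes, 0.31 and -0.27 for PANC-1 genes, and 0.01 and -0.16 for MIA PaCa-2 genes.

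The other ligands were set beside 3A4 for the genes that led each class, in a fit of the 24 libraries of both lines with shared DMSO groups. With GW3965, an LXR agonist, 13 of 20617 genes were called in PANC-1 (0.0631%), 12 higher (0.0582%) and 1 lower (0.00485%). In MIA PaCa-2 124 were called (0.601%), 97 higher (0.470%) and 27 lower (0.131%). With 1E5, the other code-named compound called an inverse agonist, 6104 were called in PANC-1 (29.6%), 3068 higher (14.9%) and 3036 lower (14.7%). In MIA PaCa-2 8648 were called (41.9%), 4915 higher (23.8%) and 3733 lower (18.1%). ABCA1 had log2 fold changes of 4.69 in PANC-1 and 2.91 in MIA PaCa-2 with GW3965 and 0.33 in PANC-1 and 0.14 in MIA PaCa-2 with 1E5. FASN had 1.04 in PANC-1 and 1.29 in MIA PaCa-2 with GW3965 and -2.48 in PANC-1 and -1.28 in MIA PaCa-2 with 1E5. FADS1, opposite with 3A4, had -1.44 in PANC-1 and 1.26 in MIA PaCa-2 with 1E5, also of opposite sign. VSIR, opposite with 3A4, had -0.80 in PANC-1 and -3.15 in MIA PaCa-2 with 1E5. IFIT1 had -2.04 in PANC-1 and -2.72 in MIA PaCa-2, and CDKN1A 0.00 in PANC-1 and 4.06 in MIA PaCa-2, with 1E5. CXCL8 had 0.87 in PANC-1 and 2.54 in MIA PaCa-2 with 1E5, and H2BC8 -0.32 in PANC-1 and -1.48 in MIA PaCa-2. These values share the DMSO libraries of their line with the 3A4 values above, and differences between the ligands were not tested here. They are given without SE or adjusted p, so a value does not say that the gene was called. The MIA PaCa-2 libraries with GW3965 held only 4587871, 13631719 and 2701393 counts.

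Genes that passed the count filter within 1 line only entered no class, since their counts in the other line were under it. Of 3234 such genes in PANC-1, 54 rose and 47 fell, and of 517 in MIA PaCa-2, 37 rose and 20 fell. CSF3, the granulocyte growth factor, was at 46.4, 54.9 and 50.3 CPM in MIA PaCa-2 with 3A4, against 5.13, 3.45 and 4.31 with DMSO (log2 3.57 ± 0.307 SE, adjusted p = 0.000239), and IL1B, interleukin 1 beta, at 39.6, 44.6 and 49.1, against 9.78, 7.1 and 8.04 (log2 2.42 ± 0.203 SE, adjusted p = 0.00053). Both were at or near 0 in all PANC-1 libraries. TM4SF19, a membrane protein gene, was at 11.5, 7.57 and 12.4 CPM in MIA PaCa-2 with 3A4, against 0, 0.671 and 0 with DMSO, and at 0.438, 0.349 and 0.373 against 0, 0 and 0.153 CPM in PANC-1. In PANC-1 the mucin MUC16 was at 2.95, 4.07 and 1.74 CPM with 3A4, against 20.7, 46.4 and 25.4 with DMSO (log2 -3.38 ± 0.443 SE, adjusted p = 0.00387), and the carboxypeptidase CPA4 at 12.6, 10.7 and 8.9, against 1.03, 0.281 and 0.918 (log2 3.85 ± 0.419 SE, adjusted p = 0.00171). THBD, the thrombin receptor thrombomodulin, was at 8.8, 7.02 and 8.15 CPM in PANC-1 with 3A4, against 0.491, 1.04 and 0.612 with DMSO (log2 3.46 ± 0.528 SE, adjusted p = 0.00708). In MIA PaCa-2 MUC16 was at or near 0 in all 6 libraries, and CPA4 was at 0.696, 0.457 and 0.688 CPM with 3A4, against 0 with DMSO. CPA4 was thus also called higher in MIA PaCa-2 in the fit of 12 libraries (adjusted p = 0.0134), with no fold given against a group listed at 0.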

How the data were processed

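Total RNA was sequenced from 3 libraries per line and treatment, and the titles call them biological replicates without saying that the cultures were separate, so each p-value reflects how far these libraries spread. Per the submitters' processing notes, the authors worked on build GRCh38 with tools that included StringTie 1.3.1c, HISAT2 2.0.2, Trim Galore 0.4.4 and SAMtools 1.3, and they deposited a table of raw gene counts, which derive from coverage. Rows that name no gene (407 transcripts and 8 assembled loci) were left out and held at most 0.00396% of a library's counts. Of 58243 gene rows, 57532 had a symbol in the reference. Genes were filtered with edgeR's filterByExpr (minimum count 10, total 15) and scaled by TMM. The 4 group means of the 12 libraries were fitted with edgeR 4.0.16 (R 4.3.3) by the quasi-likelihood test, and BxPC-3 and the 24 libraries with GW3965 and 1E5 by the same test. Alternatives used DESeq2 1.42.0, limma 3.58.1, other scalings, no filter, other sets of libraries and thinning. The test was checked on simulated counts. CPM are counts scaled to a common TMM-adjusted library total. SE is the standard error of a log2 fold change, and log2 values after ± have it. Counting error alone limits levels near 0, and PCR copies were not removed here. Members and lists were chosen with earlier results of these data known, so a list's counts are a description. Named genes were the lipid and receptor genes of the LXR question, the largest differences and folds of each class, and up to 5 of each list, and genes added to these from the lists were chosen after their values were seen. Some genes that meet this rule are not reported here. Promoters came from RefSeq. The overlap of genes is from GENCODE 29.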

Additional observations from a re-analysis of the deposited data

Results flagged for a closer look

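The response to 3A4 differed between PANC-1 and MIA PaCa-2, by the test of the difference itself, for 550 genes of those tested, 194 with the higher log2 fold change in PANC-1 and 356 with the lower. Those named in the text, apart from IER3, are given with the difference of their log2 fold changes, PANC-1 minus MIA PaCa-2. Among genes of the opposite class, the difference was above 0 for CD14 (4.26), DHRS3 (2.87), IFIT1 (2.24), IFIT2 (2.48), PTGES (2.17), SERPINA3 (4.28), STRA6 (2.93), TIMP1 (1.16), VSIR (2.21) and ZNF488 (3.22). It was below 0 in that class for CITED4 (-1.73), FADS1 (-1.72), HGSNAT (-1.53), ITGB1 (-0.91), MLXIP (-1.63), PSAT1 (-1.37), SEMA3C (-2.34), SKIL (-1.58), SOX4 (-1.81) and TFCP2L1 (-2.21). Among genes called in PANC-1 alone of the lines, the difference was above 0 for AREG (2.02), ATP6V0E2-AS1 (1.64), BCAN-AS1 (2.36), H2AC20 (2.23), ID2 (2.83), MT-TV (1.71), MT1A (1.49), MT1E (0.89), MT1X (1.09), PLAU (1.28), PTPRH (1.44), TMEM40 (5.84) and ZNF584 (1.82). It was below 0 in that class for ADRA2C (-1.82), BMP7 (-1.42), CTXN1 (-1.07), DDIT4 (-2.19), FASN (-1.04), HILPDA (-1.51), IDI1 (-1.29), LDHA (-0.95), S100A10 (-0.91), SCD (-1.69), SLC2A12 (-1.74), SLC6A6 (-2.07) and ZNF613 (-1.72). Among genes called in MIA PaCa-2 alone of the lines, the difference was above 0 for BST2 (2.60), ERAP2 (1.21), ID1 (1.05), IFIT3 (1.82), IFITM2 (1.89), KRT15 (2.20), PSMB9 (1.90), RPL12P38 (6.61), SCNN1A (2.37), SERPINF1 (2.11), SHOX2 (2.38) and TKT (1.09). It was below 0 in that class for AHR (-2.27), CCN2 (-1.67), CDKN1A (-2.37), CEBPB (-1.41), CEBPG (-1.04), CTH (-1.77), H2BC5 (-1.34), MYLK (-3.65), SESN2 (-1.19), SLC30A1 (-2.08), SLC7A11 (-2.54), TGFBI (-1.85) and TRAF1 (-1.61). Among genes that changed in the same direction in both lines, the difference was above 0 for MMP1 (2.73) and PLIN2 (1.12). It was below 0 in that class for BIRC3 (-1.40) and TNFAIP3 (-1.92). For genes listed at 0 in a whole group no fold is given, and the adjusted p of the difference was 0.0283 for CALB2, 0.006 for CYP1A1, 0.002 for ATXN1, 0.0243 for LAMP3, 0.000336 for LHFPL6, 0.00233 for NEURL3, 0.00375 for PLAG1 and 0.00572 for SULF2. In the line with the group at 0, these genes passed the count filter only through the 3A4 libraries. Their direction was set by that choice and a 0 may be a failed estimate, so these adjusted p are no support for a difference. BCAN-AS1, MMP1, STRA6 and TMEM40 in PANC-1 and MYLK in MIA PaCa-2 were low with DMSO and also passed only through 3A4. Their direction in that line was likewise set by the filter. Of these 83 differences, the genes listed at 0 among them, 44 held in all 12 fits that leave out 1 library. The 44 include ATXN1, CYP1A1, LHFPL6, NEURL3 and PLAG1, listed at 0 in a whole group, for which holding is no sign of stability. The other 39 kept their sign in all 12 and lost the call in 1 or more of them, and the counts beside each gene give how many fits kept it. The size for MYLK is poorly set, at -8.21 to -2.69 over these fits.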

How the results depend on the processing

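The counts of calls depended on the fit. For the difference between the lines (550 genes), DESeq2 gave 1652, limma-voom with sample weights 1097, a fit of all 36 libraries 1125, libraries thinned to equal depth 343 and a fit without the shallowest library of each MIA PaCa-2 group, chosen after seeing the data, 989. For the response in PANC-1 (1122), DESeq2 gave 2276, limma-voom 2173, limma-voom with sample weights 3994 and a fit to its own 6 libraries 2403, and for that in MIA PaCa-2 (3297) a fit to its own 6 libraries gave 1506. Genes changed in the same direction (434) numbered 819 with DESeq2 and 822 with weights, those in opposite directions (38) 88 and 106, and those called in 1 line with a difference (420) 1234 and 787, 864 with all 36 libraries and 757 without the shallowest libraries. The cause of these shifts was not tested. Leaving out 1 library at a time gave 161 to 1196 differences, 340 calls (without PANC-1 3A4 replicate 1) to 1478 (without MIA PaCa-2 3A4 replicate 2) in PANC-1, 1794 (without MIA PaCa-2 3A4 replicate 2) to 3853 (without MIA PaCa-2 3A4 replicate 1) in MIA PaCa-2, 151 to 429 shared, 13 to 56 opposite and 120 to 938 one-line genes. Of the calls for named genes, 67 of 89 in PANC-1 and 76 of 95 in MIA PaCa-2 held in all 12 of these fits. Over all settings, 9071 of the values recomputed for named genes kept their side of the threshold, 616 no longer passed it, 69 newly passed it and 0 of the called values turned round. Direction was compared only for called values, so the 9071 may include uncalled values that changed sign. A replicate block gave 397 differences, 966 calls in PANC-1, 3176 in MIA PaCa-2, 403 shared, 34 opposite and 311 one-line genes. Same-numbered 3A4 and DMSO libraries were not treated as pairs in the main fit. Their deviations correlated at 0.09, 0.15 and 0.12 in PANC-1 and 0.00, 0.17 and -0.12 in MIA PaCa-2. Other pairs gave -0.20 to 0.15. The PANC-1 values were all above 0 and 0.17 was above every other pair, so these values do not settle whether the numbers pair the libraries. The median standard error of a log2 fold change was 0.248 in PANC-1 and 0.245 in MIA PaCa-2, and 0.334 for the difference at these depths.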

Other observations

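Some gene groups outside the comparisons above are given here with their called differences. Over all genes measured in both lines, 3.37% rose in PANC-1 and 12.3% in MIA PaCa-2. A difference was called higher in PANC-1 for 1.28% and lower for 2.24%. Of 10 metallothioneins and zinc transporters measured, 4 rose in PANC-1 and 4 in MIA PaCa-2 with none shared, and 5 differences were called. Those of PANC-1 were metal-binding metallothioneins, which store zinc and copper. MT1X was at 12.5, 13.3 and 12.4 CPM in PANC-1 with 3A4, against 7.51, 5.29 and 6.01 with DMSO. MT1X in MIA PaCa-2 was at 57.3, 49.4 and 58.7 CPM with 3A4, against 68.5, 52.8 and 51.4 with DMSO (difference 1.09 ± 0.231, kept in 5 of 12 fits, adjusted p up to 0.0778). MT1E had a difference of 0.89 ± 0.184, kept in 5 of 12 fits, adjusted p up to 0.0725, and MT2A rose by log2 0.91 ± 0.158 in PANC-1 without a called difference (adjusted p = 0.0889). Genes of this family share sequence, so reads may be split between them. SLC30A1, the exporter of zinc at the cell surface, went the other way, at 72.4, 80.8 and 81.3 CPM in PANC-1 with 3A4, against 106, 147 and 146 with DMSO. SLC30A1 in MIA PaCa-2 was at 60.7, 138 and 67.5 CPM with 3A4, against 31.9, 37.7 and 38.2 with DMSO (difference -2.08 ± 0.368, kept in 11 of 12 fits, adjusted p up to 0.0501).

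Of 13 YAP and TEAD targets, 2 rose in PANC-1 and 7 in MIA PaCa-2, with medians of 0.31 and 0.78, and 2 differences were called, both lower in PANC-1. CCN2, the matrix growth factor CTGF, was at 165, 165 and 146 CPM in PANC-1 with 3A4, against 115, 115 and 73.3 with DMSO. CCN2 in MIA PaCa-2 was at 15.7, 14.3 and 10.4 CPM with 3A4, against 3.37, 2.78 and 1.44 with DMSO. CCN2 rose in MIA PaCa-2, and its difference was -1.67 ± 0.353, kept in 4 of 12 fits, adjusted p up to 0.0681. Of 17 TGF-beta and SMAD genes, 2 rose and 1 fell in PANC-1 and 4 rose and 3 fell in MIA PaCa-2, none of them in both, and 7 differences were called, 3 higher and 4 lower in PANC-1. For both lists, the shares over all measured genes were 3.37% higher and 3.72% lower in PANC-1, and 12.3% and 9.14% in MIA PaCa-2. For the difference they were 1.28% higher and 2.24% lower in PANC-1. The inhibitors of differentiation ID1 and ID2, targets of BMP signals, had differences of 1.05 ± 0.229, kept in 4 of 12 fits, adjusted p up to 0.0936 and 2.83 ± 0.561, kept in 6 of 12 fits, adjusted p up to 0.0667. ID2 was at 13.4, 8.95 and 13.7 CPM in PANC-1 with 3A4, against 3, 2.05 and 3.83 with DMSO. ID2 in MIA PaCa-2 was at 12.9, 4.2 and 6.94 CPM with 3A4, against 12.5, 9.68 and 19.8 with DMSO, and its rise in PANC-1 was kept in 9 of 12 fits, adjusted p up to 0.0701. MMP1, a collagenase, was at 5.02, 2.21 and 3.17 CPM in PANC-1 with 3A4, against 0.196, 0.201 and 0.268 with DMSO. MMP1 in MIA PaCa-2 was at 7.54, 16.4 and 18.1 CPM with 3A4, against 7.22, 5.66 and 5.74. A rise was called in both lines, that in MIA PaCa-2 kept in 3 of 12 fits, adjusted p up to 0.129. The difference was 2.73 ± 0.595, kept in 5 of 12 fits, adjusted p up to 0.0801. In PANC-1 MMP1 passed the count filter only through the 3A4 libraries. Its direction there was set by that choice, so the difference is no support for a larger rise in PANC-1.

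Of 20 ribosomal protein genes, 1 fell in PANC-1 (median log2 -0.01) and 11 fell in MIA PaCa-2 (median -0.40), where the DMSO libraries were the shallower ones, and 1 difference was called. Falls were called for 3.72% of all genes measured in both lines in PANC-1 and 9.14% in MIA PaCa-2. With all libraries thinned to the depth of the shallowest, 1 fell in PANC-1 (median 0.02) and 11 fell in MIA PaCa-2 (median -0.44). Genes listed at 0 in a whole group give no fold, and the direction of those below was set by the count filter, which they passed in that line only through 3A4. CYP1A1, the target of the aryl hydrocarbon receptor, was at 1.47, 0.543 and 0.747 CPM in PANC-1 with 3A4 and listed at 0 in all 3 DMSO libraries. CYP1A1 in MIA PaCa-2 was at 1.74, 0.79 and 0.847 CPM with 3A4, against 2.73, 2.21 and 2.58 with DMSO. CALB2, the calcium-binding calretinin, was at 2.07, 0.504 and 0.622 CPM in PANC-1 with 3A4 and listed at 0 in its DMSO libraries. CALB2 in MIA PaCa-2 was at 53.9, 27.9 and 30.9 CPM with 3A4, against 41.7, 26.8 and 29 with DMSO. Its difference was kept in 7 of 12 fits, adjusted p up to 0.0701. LAMP3, a lysosomal membrane protein, was at 1.28, 1.21 and 1.27 CPM in MIA PaCa-2 with 3A4 and listed at 0 with DMSO, and at 8.92, 9.5 and 10.1 CPM in PANC-1 with 3A4, against 6.38, 17 and 6.77 with DMSO. Its difference was kept in 10 of 12 fits, adjusted p up to 0.061. For CALB2 and LAMP3 these counts of fits are no sign of stability, since the filter set the direction.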
